A study of Mus musculus with 8 samples.

Results

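Promoter peaks are stretches of accessible chromatin at the start sites of protein-coding genes. They were taken here as the ATAC-seq peaks on chromosomes 1 to 19 that overlapped the 1000 bp on either side of a start site. Of 57199 peaks in the deposited table, 12721 (22.2%) met this rule, and 11348 of 20661 autosomal protein-coding genes (54.9%) had at least 1. Start sites came from RefSeq annotation of GRCm38.p6, the source of mm10. For 16456 genes the strand was known, and for 4205 genes without strand either end of the gene was used, so that 2438 promoter peaks lie at a gene end that may not be the start.

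ATAC-seq inserts sequencing adapters into open DNA with a transposase, so the count in a peak measures how accessible that stretch is. Regulatory T (Treg) cells were isolated by sorting from spleen of mixed bone-marrow chimeric mice as CD45.2+ CD45.1- CD4+ Foxp3-YFP+ cells, so that the cells of the CD45.2 donor were taken in both groups. In 1 group of 4 libraries the donor was WT, and in the other group of 4 libraries it carried Foxp3Cre and Flcnfl/fl (Flcn KO), in which the recombinase is driven by Foxp3, the transcription factor that defines Treg cells. The labels do not say whether the WT donor carried Foxp3Cre, what the competing donor was, how old the mice were, or whether a library pools several chimeras. They call the 4 libraries of a group biological replicates.

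Most promoters of mammalian genes are held open by general transcription factors and by CpG-rich sequence that is poor at holding nucleosomes, whether or not the gene is strongly transcribed, while enhancers far from genes open in fewer cell types. The Flcn gene encodes folliculin, which works on the lysosomal surface to pass amino acid signals to the kinase complex mTORC1, and which holds TFEB and TFE3 in the cytoplasm. In the nucleus these factors bind the CLEAR element, a CACGTG E-box with set flanks, in promoters of lysosomal and autophagy genes. The comparison of WT with Flcn KO addresses which start sites change in accessibility when Flcn is deleted in Foxp3-expressing cells.

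Of the promoters described below 9 are shown first, as the 250 bases before the start site, because they range from CpG-poor to CpG-rich start sites and include promoters with a TATA box. Capitals mark matches, on either strand, to the 17 motifs that were searched, except that matches to the forkhead and STAT sites were left in lower case. The first 5 had more accessible peaks in Flcn KO and the last 4 less accessible ones. The windows are chr19:34629812-34630061 (minus strand) for Ifit1bl2, chr10:51480362-51480611 (plus) for Lilr4b, chr6:65144731-65144980 (minus) for Hpgds, chr8:94178839-94179088 (plus) for Mt1, chr7:64185209-64185458 (plus) for Trpm1, chr11:58199306-58199555 (plus) for Igtp, chr5:91139349-91139598 (plus) for Areg, chr7:49245939-49246188 (plus) for Nav2 and chr1:66175079-66175328 (plus) for Map2, all from RefSeq on GRCm38.p6.
Ifit1bl2: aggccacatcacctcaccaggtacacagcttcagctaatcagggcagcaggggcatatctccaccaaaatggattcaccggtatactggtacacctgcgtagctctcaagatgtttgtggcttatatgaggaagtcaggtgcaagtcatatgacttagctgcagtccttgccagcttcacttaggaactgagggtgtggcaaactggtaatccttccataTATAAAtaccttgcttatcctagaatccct
Lilr4b: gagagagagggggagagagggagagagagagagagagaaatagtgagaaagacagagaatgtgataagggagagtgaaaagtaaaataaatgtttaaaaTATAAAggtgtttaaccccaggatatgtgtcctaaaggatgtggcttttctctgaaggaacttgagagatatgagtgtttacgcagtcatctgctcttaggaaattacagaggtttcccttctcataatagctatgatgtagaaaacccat
Hpgds: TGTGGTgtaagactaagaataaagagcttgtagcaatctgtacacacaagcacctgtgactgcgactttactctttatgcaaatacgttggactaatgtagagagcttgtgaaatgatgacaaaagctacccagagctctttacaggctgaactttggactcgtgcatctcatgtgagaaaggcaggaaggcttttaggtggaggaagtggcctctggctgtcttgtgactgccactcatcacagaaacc
Mt1: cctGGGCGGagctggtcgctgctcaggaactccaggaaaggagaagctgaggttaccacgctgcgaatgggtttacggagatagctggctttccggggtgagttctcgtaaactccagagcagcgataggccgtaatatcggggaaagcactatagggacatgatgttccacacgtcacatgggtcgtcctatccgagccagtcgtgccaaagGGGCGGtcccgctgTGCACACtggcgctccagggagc
Trpm1: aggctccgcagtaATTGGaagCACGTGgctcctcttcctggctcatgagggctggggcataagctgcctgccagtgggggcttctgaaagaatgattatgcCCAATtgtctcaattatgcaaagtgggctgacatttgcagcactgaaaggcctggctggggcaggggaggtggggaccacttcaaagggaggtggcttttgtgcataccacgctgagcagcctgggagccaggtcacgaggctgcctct
Igtp: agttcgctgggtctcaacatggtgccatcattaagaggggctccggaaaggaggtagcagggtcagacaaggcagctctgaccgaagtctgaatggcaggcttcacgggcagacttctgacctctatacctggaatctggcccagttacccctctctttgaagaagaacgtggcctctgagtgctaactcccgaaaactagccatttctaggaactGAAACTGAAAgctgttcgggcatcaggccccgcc
Areg: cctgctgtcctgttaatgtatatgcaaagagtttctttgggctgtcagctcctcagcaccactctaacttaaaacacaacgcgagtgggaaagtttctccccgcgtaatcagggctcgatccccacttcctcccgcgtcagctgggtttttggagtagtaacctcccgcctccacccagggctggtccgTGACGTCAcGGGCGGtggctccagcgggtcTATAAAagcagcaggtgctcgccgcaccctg
Nav2: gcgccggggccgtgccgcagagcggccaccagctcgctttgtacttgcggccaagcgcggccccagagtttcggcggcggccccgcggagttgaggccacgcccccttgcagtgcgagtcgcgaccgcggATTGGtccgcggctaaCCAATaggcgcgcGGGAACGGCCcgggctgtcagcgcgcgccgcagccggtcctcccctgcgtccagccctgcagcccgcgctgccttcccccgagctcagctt
Map2: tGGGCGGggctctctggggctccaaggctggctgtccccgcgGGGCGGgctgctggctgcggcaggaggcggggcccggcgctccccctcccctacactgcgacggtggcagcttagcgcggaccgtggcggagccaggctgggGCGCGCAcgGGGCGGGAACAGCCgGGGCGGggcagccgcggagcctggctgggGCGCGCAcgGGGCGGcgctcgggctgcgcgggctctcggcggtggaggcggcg

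The sequences differ in kind. Ifit1bl2 has a TATA box (TATAAA) 30 to 25 bases before its start, and Areg has one 31 to 26 bases before its start, with a cAMP response element (TGACGTCA) and a GC box (GGGCGG) just upstream. Igtp carries an interferon-stimulated response element, 34 to 25 bases before its start, with a STAT match (ttctaggaa, in lower case) just upstream. Mt1 holds a metal response element (TGCACNC) 23 to 17 bases before its start beside a GC box. Trpm1 holds a CACGTG E-box 229 to 224 bases before its start. Map2 has 5 GC boxes and Nav2 a pair of CCAAT boxes and an NF-kB match. Hpgds shows a single match, to the RUNX site TGTGGT. Lilr4b has a TATAAA 151 to 146 bases upstream. Nearer its start, in lower case, are a STAT match (ttctctgaa) and a forkhead match (tgtttac). By the ratio of observed to chance-level CpG (0.6 or more over the 250 bases before and 50 after the start), the Mt1, Areg, Nav2 and Map2 promoters were CpG-rich and the other 5 were not.

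Short motifs match often by base composition alone. Over 20084 start sites with sequence, the TATA box was present at 12.7%, the GC box at 47.0%, the CCAAT box at 38.1%, the cAMP response element at 2.30%, the interferon-stimulated response element at 3.38%, TGCACNC at 12.6%, CACGTG at 7.89%, TGTGGT at 14.8% and the NF-kB site at 6.14%. The other motifs searched were the CLEAR element (0.428%, which contains CACGTG), another metal response element TGCGCNC (19.98%), the ETS site CCGGAAG (11.9%), the NRF1 site (1.34%), the YY1 site (1.19%), the AP-1 site TGANTCA (7.06%), the forkhead site TGTTTAC (3.04%) and the STAT site TTCNNNGAA (7.78%). A match is a description of letters and does not show that a factor was bound.

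The libraries held between 2723344 and 5111728 counts in all peaks, of which 1382034 to 2521331 lay in promoter peaks. Promoter peaks took 51.0 ± 1.53% of the counts in WT and 50.2 ± 1.61% in Flcn KO (SD, n = 4 libraries each). The difference of −0.89 percentage points was within the spread between replicates (exact two-sided permutation test, p = 0.457, Benjamini-Hochberg adjusted p = 0.686 over 3 such values; the smallest p that 4 against 4 libraries allow is 0.029). The 100 strongest promoter peaks took 6.48 ± 0.22% of promoter counts in WT and 6.74 ± 0.42% in Flcn KO (exact permutation p = 0.343, adjusted 0.686). Of the counts in promoter peaks at start sites with sequence, those at CpG-rich sites took 84.6% in both groups (exact permutation p = 0.8). Normalised read counts are given as CPM, counts scaled to library size with edgeR's TMM factors, which lay between 0.98 and 1.02.

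Promoters of T cell genes were open in all libraries and those of other lineages mostly had no peak. All 8 T cell markers had a promoter peak, among them Cd28 (170 CPM per kb), Cd5 (77.5) and Cd3g (54.2), as did 7 of 9 Treg markers, among them Ctla4 (168), Ikzf2 (104) and Il2ra (83.8). Other T cell markers were weaker, with Cd3e at 16.2 and 16.8. The strand of Cd4 was not known: a peak over a gene end of Cd4 alone had 21.7. The peaks at its other end (9.27 and 8.68) were nearest to an end of Gpr162, so they may not belong to the Cd4 promoter. The median over the 13 T cell marker peaks, these included, was 29.8 CPM per kb, below the 42.0 of all promoter peaks. Foxp3 lies on chromosome X and is outside the rule. Among B cell markers Ebf1 had a promoter peak (6.25 CPM per kb), and Cd79a, Cd79b, Ms4a1, Pax5 and Blnk had none. Of 7 myeloid markers only Cd14 had one (4.49 CPM per kb). Of 6 CD8 T and NK markers Cd8b1 (39.1) and Eomes had one, among erythroid markers Epor had one (13.8), and of 7 epithelial, hepatic and neuronal markers Epcam (11.1). None of the 27 tested marker promoter peaks passed the edgeR test or DESeq2 between the groups, where each tool called 0.564% of all tested promoter peaks. An unadjusted edgeR p below 0.05 was seen at 2 of the 27, beside 7.38% of all tested promoter peaks. Both counts are near these shares.

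Promoter peaks were centred on the start site. Of 12721, 9543 (75.02%) covered the annotated start itself, and over the 10283 with known strand the peak centre lay a median of 7 bp upstream (quartiles from 79 bp upstream to 109 bp downstream). Peaks covering the start had a median of 52.5 CPM per kb and a median width of 526 bp. Those beside it had 22.5 CPM per kb and 328 bp. Beside the start site, more peaks lay downstream (1443) than upstream (839), at similar median levels of 23.3 and 23.1 CPM per kb. The plot of peak number and level around the start shows both features.

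**Figure D1:**
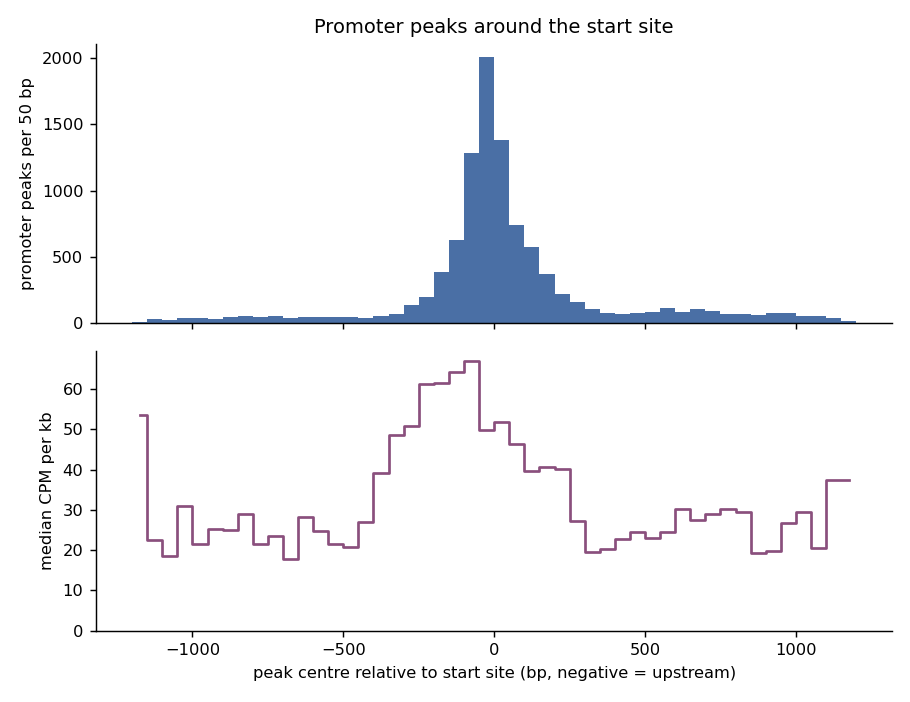
Number of promoter peaks with known strand per 50 bp (upper panel) and their median accessibility in CPM per kb over all 8 libraries (lower panel), by distance of the peak centre from the start site in bp. Most peaks sit close to the start, and among the steps drawn the median level is highest, at 66.9 CPM per kb, where the centre lies between 100 and 50 bp upstream; the outermost steps rest on few peaks (11 in the leftmost).

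Accessibility varied widely among promoters. The median promoter peak had 42.0 CPM per kb, with quartiles of 19.1 and 88.8, against a median of 15.4 for the 42870 other autosomal peaks. Of the 100 peaks with the highest CPM per kb among all 57199, 92 were promoter peaks, and of the top 1000 peaks 819 were. The strongest promoter was that of Sel1l, which encodes an adaptor for degrading misfolded proteins of the endoplasmic reticulum, at 781 CPM per kb. It was followed by Zfp654, a zinc-finger gene (691), Msmo1, a cholesterol synthesis enzyme (681), Scai (633) and Stt3a, the catalytic subunit of an oligosaccharyltransferase (631). At Sel1l the WT libraries held 456, 430, 484 and 510 CPM and the Flcn KO libraries 409, 462, 508 and 575 CPM. The groups overlapped there, with a log2 change, Flcn KO over WT, of 0.05 (SE 0.09, edgeR adjusted p = 0.866), and at the other 4 the log2 change lay between 0.02 and 0.08.

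Start sites with a peak were more often CpG-rich than those without. Of 9829 CpG-rich start sites 82.9% had a promoter peak, against 24.95% of 10255 CpG-poor ones. Peaks at CpG-rich sites were also stronger, with a median of 50.0 against 29.1 CPM per kb, wider (512 against 410 bp) and less variable between replicates (median SD 0.21 against 0.28 log2 units). ETS sites stood at 19.5% of start sites with a peak and 3.14% of those without, YY1 sites at 2.07% and 0.17%, and NRF1 sites at 2.26% and 0.30%. TATA boxes ran the other way, at 5.99% of start sites with a peak and 20.4% of those without. These motifs share base composition with CpG-rich or CpG-poor sequence, and the part of composition in these shares was not tested.

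Promoter peaks were the more reproducible peaks of the table. The median SD between replicates, pooled over the groups, was 0.22 log2 CPM units at tested promoter peaks and 0.39 at other autosomal peaks. Part of this gap went with depth, since 76.7% of tested promoter peaks lay above the median level of all tested peaks. In the highest quintile of levels the medians were 0.15 and 0.20, and in the lowest quintile 0.56 and 0.57. Spread was larger in Flcn KO than in WT at promoter peaks, with a median SD of 0.23 against 0.19, and this difference was not tested. The Flcn KO libraries ran from 2723344 to 5111728 counts and the WT libraries from 3986331 to 4914976. The part of depth in this difference was not tested.

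**Figure D2:**
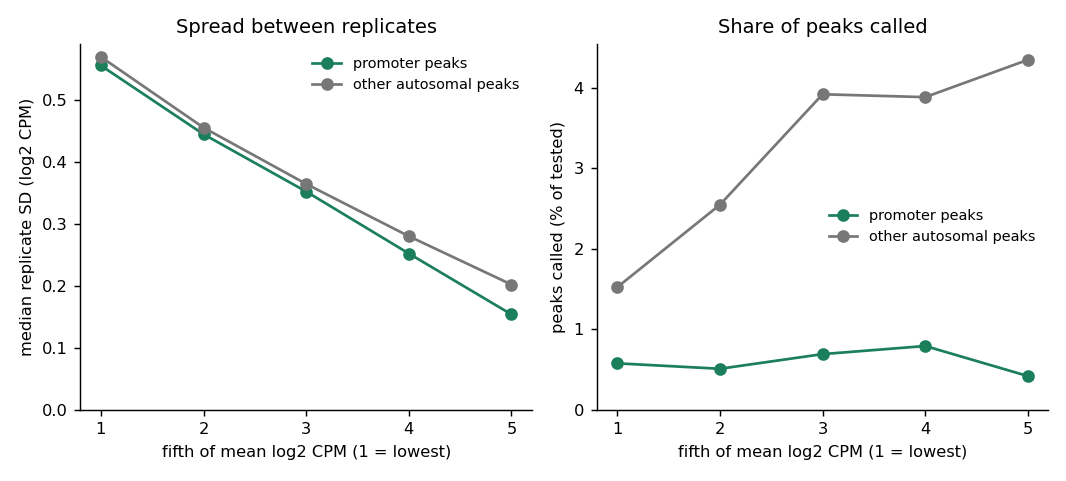
Median SD between replicates in log2 CPM (left) and share of tested peaks called between WT and Flcn KO in percent (right), by quintile of mean level, for promoter peaks and other autosomal peaks. The spread falls with level in both kinds of peak, while the share of promoter peaks called stays between 0.419% and 0.792% in every quintile and that of other peaks runs from 1.52% to 4.35%.

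Individual promoters showed how far this precision reached. Among 5986 promoter peaks with a mean count of at least 100, that of Cryl1, which encodes a crystallin-related dehydrogenase, had the smallest spread. Its WT libraries held 65.6, 64.2, 67.3 and 64.9 CPM and its Flcn KO libraries 64.9, 65.7, 63.1 and 64.0 CPM. The 8 values lie within a few CPM of each other, and the log2 change was −0.02 (SE 0.11, edgeR adjusted p = 0.961). Dhx38, a splicing helicase gene, Intu, 9430038I01Rik and Pla2g12a followed. At 9430038I01Rik the WT libraries held 113 to 117 CPM and the Flcn KO libraries 94.97 to 101 CPM, without overlap, yet the difference did not pass the test (log2 change −0.25, SE 0.09, edgeR adjusted p = 0.205).

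At the other end stood Pcyox1l, Inpp5f, Glt28d2, Cnn3 and Perm1. Cnn3, which encodes an actin-binding calponin, held 25.9, 15.2, 25.8 and 38.4 CPM in WT, against 19.7, 24.05, 20.9 and 38.1 CPM in Flcn KO. Its range within each group was far wider than the gap between the means of 26.3 and 25.7 CPM (log2 change −0.06, SE 0.23, edgeR adjusted p = 0.951). Inpp5f, a phosphoinositide phosphatase gene, ranged from 14.7 to 32.0 CPM in WT, against from 19.1 to 40.6 CPM in Flcn KO. Perm1, a regulator of muscle metabolism, held 9.91 CPM in Flcn KO replicate 4 and 23.1 to 33.5 CPM in the other libraries.

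Few promoters differed between the genotypes. Of 12721 promoter peaks 12053 passed the filter on low counts and were tested, with p-values adjusted over all 47859 tested peaks. At an edgeR adjusted p below 0.05, 68 promoter peaks (0.564%) were called: 35 were higher and 33 lower in Flcn KO. Over all tested peaks 2.37% were called, 1.35% higher and 1.02% lower. DESeq2 called 34 promoter peaks higher and 34 lower, 68 in all, against 2.34% of all peaks (1.33% higher and 1.01% lower). With limma-voom 33 were higher and 25 lower, 58 in all, against 2.01% (1.2% and 0.811%). All 3 tools called 55 of the 68. Of the 68, 17 were at least 2-fold higher and 15 at least 2-fold lower. Together these 32 were 0.265% of the 12053 tested promoter peaks, against 1.6% of all tested peaks called and at least 2-fold changed. At an unadjusted p below 0.05 there were 305 higher promoter peaks (2.53%, background 6.87%) and 584 lower ones (4.85%, background 5.99%). Together these were 7.38% of those tested against 12.9%. The libraries of the groups did not overlap at 191 promoter peaks that were higher (background 4.03%) and 411 that were lower (background 3.56%), 602 in all against 7.59% of all tested peaks, and this held for 30 of the 35 higher and 31 of the 33 lower called peaks. Whether a difference reflects fewer cells with an open promoter or less opening in each cell cannot be told apart in sorted bulk cells.

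Called promoter peaks were rarer than called other peaks at every level. In the highest quintile of levels 0.419% of promoter peaks and 4.35% of other autosomal peaks were called, although the spread there was lower at promoters. Log2 fold changes within 0.5 of 0 were seen at 92.8% of tested promoter peaks and 75.8% of other autosomal peaks. The median log2 change was −0.04 over promoter peaks and 0.00 over all tested peaks. When the scaling factors were computed on promoter peaks alone, that median moved to 0.00 and the split of calls from 35 higher and 33 lower (51.5% higher) to 42 and 19 (68.9% higher). The near balance of higher and lower promoters was not kept under that scaling, and 53 of the 68 calls were shared between both.

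**Figure D3:**
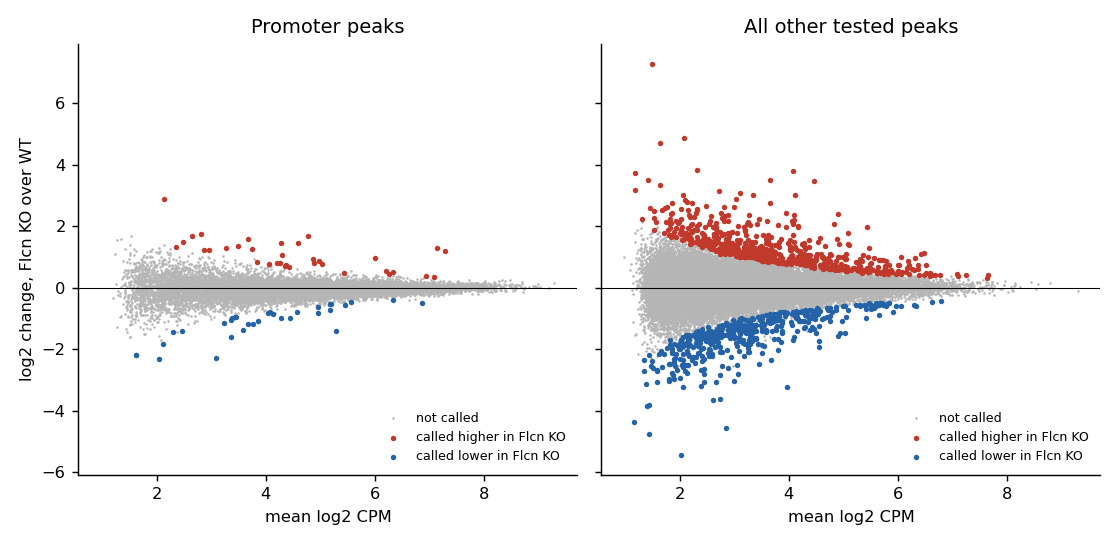
Log2 change of Flcn KO over WT against mean log2 CPM for tested promoter peaks (left) and all other tested peaks (right), with red points called higher and blue points called lower in Flcn KO at an edgeR adjusted p below 0.05. The promoter cloud is narrower at every level and holds 68 called peaks of 12053, against 1065 of 35806 on the right.

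One Flcn KO library weighed on the number of calls. Flcn KO replicate 1 was the Flcn KO library closest to the WT mean at 21 of the 33 lower and 14 of the 35 higher called promoter peaks. It was also the closest at 51.7% of the lower and 35.4% of the higher other autosomal called peaks. Without it 149 promoter peaks were called, 66 higher and 83 lower, of which 61 were among the 68. Without WT replicate 2 only 40 were called, 27 higher and 13 lower. Without WT replicate 1, 3 or 4 the calls came to 44, 60 and 42. Without Flcn KO replicate 2, 3 or 4 they came to 51, 43 and 50. Of the 68, 17 higher and 8 lower peaks were called in all 8 fits that each left out 1 library.

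Among the promoters more accessible in Flcn KO, Tnrc6a, Bhlhe40, Hpgds and Lilrb4a had some of the lowest adjusted p-values. The changes ran from 0.34 to 2.91 log2 units with a median of 0.99. The Tnrc6a peak (chr7:123030648-123031587) covers the start of a gene for a scaffold protein of microRNA silencing. Its WT libraries held 10.4, 15.6, 12.7 and 13.3 CPM and its Flcn KO libraries 40.3, 44.6, 41.3 and 39.6 CPM. All Flcn KO libraries stood well above all WT libraries, a fitted 3.19-fold difference from 13.0 ± 2.15 to 41.4 ± 2.22 CPM (SD, n = 4; log2 change 1.67, SE 0.17, edgeR adjusted p = 3.91e-08).

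Both promoter peaks of Bhlhe40, a basic helix-loop-helix repressor that binds E-boxes, rose. The gene's strand was not known, and both peaks lie at the same gene end. The peak over that end (chr6:108660123-108660826) held 88.6, 88.3, 73.4 and 75.5 CPM in WT, against 179, 187, 225 and 205 CPM in Flcn KO, without overlap (log2 change 1.28, SE 0.10, edgeR adjusted p = 3.84e-11). The peak 807 bp away (chr6:108659187-108659822) went from 42.7 ± 2.54 to 85.0 ± 5.65 CPM (log2 change 0.99, SE 0.11, adjusted p = 4.09e-07 by edgeR). Bhlhe40 was the only gene with 2 called promoter peaks.

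Hpgds, Lilrb4a, Lilr4b and Cd200r4, all genes with roles in immune cells, were among the higher promoters. Hpgds, the hematopoietic prostaglandin D synthase, has a CpG-poor promoter, shown above. Its peak (chr6:65144503-65145193) held 84.9, 101, 101 and 88.6 CPM in WT, against 236, 176, 237 and 222 CPM in Flcn KO. The lowest Flcn KO library lay above the highest WT library, with a log2 change of 1.21 (SE 0.10, edgeR adjusted p = 2.28e-10). Next to each other on chromosome 10, Lilrb4a and Lilr4b encode paired immunoglobulin-like receptors, the first of them inhibitory. At Lilrb4a (chr10:51490545-51491043) the WT libraries held 12.9, 17.2, 9.18 and 11.3 CPM and the Flcn KO libraries 52.6, 27.8, 23.9 and 35.1 CPM. At Lilr4b (chr10:51480190-51480739) they held 12.04, 13.4, 8.67 and 6.40 CPM, and 46.7, 21.9, 20.4 and 21.3 CPM. In both, Flcn KO replicate 1 was the highest and no library overlapped between the groups, with a log2 change of 1.46 each (SE 0.22 and 0.26, edgeR adjusted p = 0.0001 and 0.00106). The copies are similar in sequence, so reads may have been split between them. Cd200r4, which encodes a receptor of the CD200 receptor family, rose from 6.20 ± 2.46 to 15.9 ± 3.00 CPM (log2 change 1.35, SE 0.27, edgeR adjusted p = 0.00206).

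The largest change among called promoter peaks was at Ifit1bl2, a member of the interferon-induced Ifit family (chr19:34629771-34630110). Its WT libraries held 0.83, 0.89, 1.53 and 0.49 CPM and its Flcn KO libraries 9.39, 5.88, 4.97 and 8.38 CPM. The peak was close to closed in WT and low but open in every Flcn KO library, a fitted 7.49-fold difference (log2 change 2.91, SE 0.46, edgeR adjusted p = 9.85e-05). Ifit genes are near-identical copies in places, so its mapping is uncertain. Mt1, a zinc-binding metallothionein gene (chr8:94178863-94179278), held 5.81, 4.46, 4.59 and 6.40 CPM in WT, against 18.8, 14.4, 9.70 and 9.14 CPM in Flcn KO. All Flcn KO libraries were above all WT libraries (log2 change 1.31, SE 0.28, edgeR adjusted p = 0.0052). Trpm1, a cation channel gene best known from melanocytes and retina, rose from 12.6 ± 3.49 to 26.3 ± 5.59 CPM (log2 change 1.07, SE 0.21, edgeR adjusted p = 0.00216). Cnot8, a deadenylase subunit gene, has its called peak 974 bp upstream of the start, with 6.28 ± 2.37 and 18.7 ± 3.81 CPM (log2 change 1.57, SE 0.26, edgeR adjusted p = 0.000206).

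**Figure D4:**
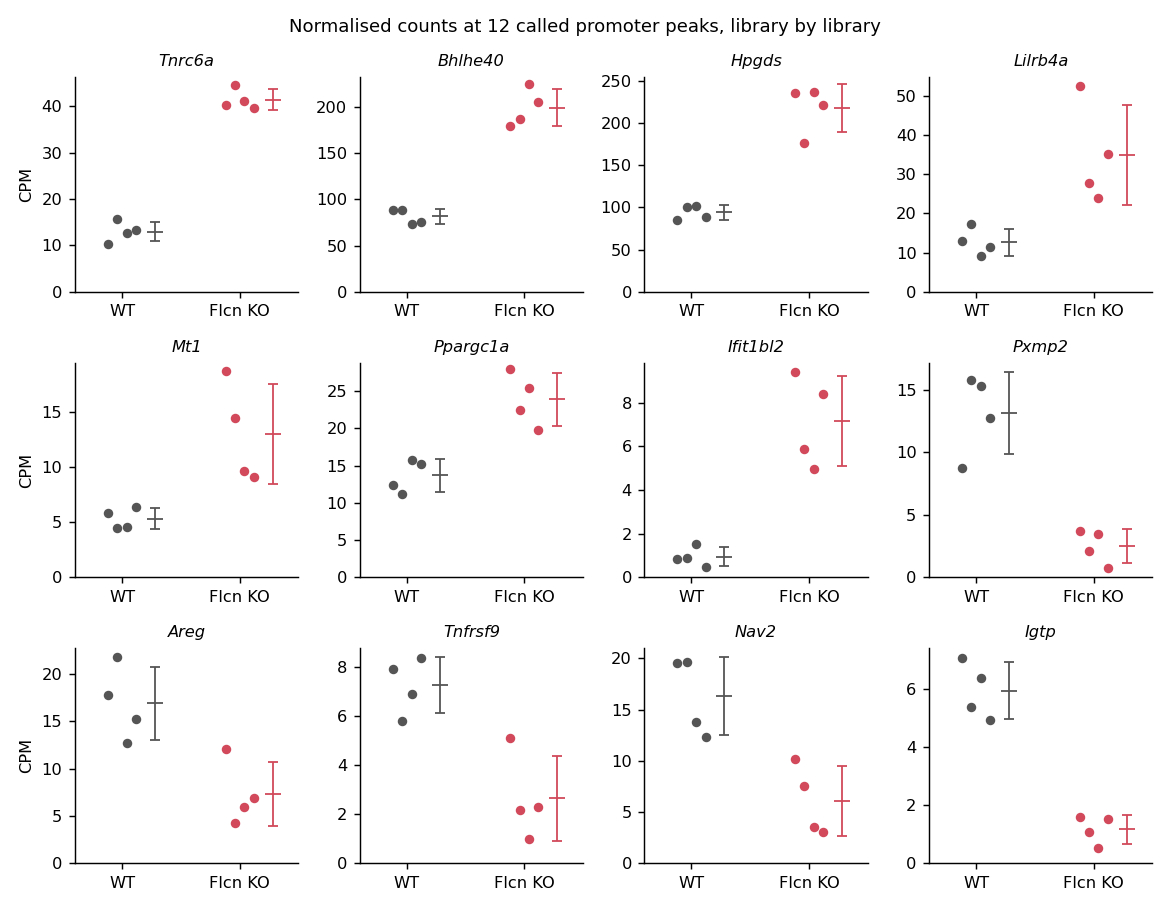
CPM in each library (points, replicates 1 to 4 from left to right) with the mean and SD beside them, at 12 called promoter peaks in WT (grey) and Flcn KO (red); each panel has its own linear axis from 0. The first 7 panels rose in Flcn KO and the last 5 fell, and no panel has overlapping groups. Flcn KO replicate 1 is the highest Flcn KO library at Lilrb4a, Mt1, Ppargc1a and Ifit1bl2, and the one nearest WT in each of the last 5.

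Promoters that lost accessibility included those of Pxmp2, Igtp and Zdhhc2. The changes ran from −0.41 to −2.33 log2 units, with a median of −0.98. Pxmp2 encodes a peroxisomal membrane channel, and its peak at a gene end without strand (chr5:110274180-110274516) held 8.72, 15.8, 15.3 and 12.8 CPM in WT, against 3.71, 2.14, 3.48 and 0.76 CPM in Flcn KO. Every Flcn KO library was below every WT library, a fitted 4.84-fold lower level (log2 change −2.27, SE 0.33, edgeR adjusted p = 3.34e-05). Igtp, an interferon-inducible GTPase gene (chr11:58199355-58199702), held 7.06, 5.35, 6.37 and 4.92 CPM in WT, against 1.56, 1.07, 0.50 and 1.52 CPM in Flcn KO. It fell in all Flcn KO libraries (log2 change −2.33, SE 0.46, edgeR adjusted p = 0.00181), on 2 to 8 counts per Flcn KO library, and it belongs to a family of similar GTPase genes. Zdhhc2, a palmitoyltransferase gene, fell from 14.5 ± 3.93 to 4.67 ± 1.64 CPM at a peak 849 bp from a gene end without strand (log2 change −1.59, SE 0.29, edgeR adjusted p = 0.000663).

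Areg and Tnfrsf9, both from the lists of Treg genes, were among the lower promoters. Areg encodes amphiregulin, a ligand of the epidermal growth factor receptor with a role in tissue repair, and its peak (chr5:91139291-91139872) covers the TATA box and cAMP response element shown above. Its WT libraries held 17.9, 21.9, 12.7 and 15.3 CPM and its Flcn KO libraries 12.1, 4.27, 5.97 and 6.86 CPM. The highest Flcn KO library came close to the lowest WT library without reaching it (log2 change −1.18, SE 0.27, edgeR adjusted p = 0.00876). The call was lost without WT replicate 2 (edgeR adjusted p = 0.072) or Flcn KO replicate 2 (0.060). Tnfrsf9, the costimulatory receptor 4-1BB (chr4:150927881-150928103), held 7.89, 5.80, 6.88 and 8.36 CPM in WT, against 5.08, 2.14, 0.99 and 2.29 CPM in Flcn KO. The groups did not overlap, but the call stood near the threshold (log2 change −1.40, SE 0.39, edgeR adjusted p = 0.043). It was kept in 1 of the 8 fits without 1 library, that without Flcn KO replicate 1, with adjusted p between 0.068 and 0.168 by edgeR in the others, and limma-voom gave 0.054.

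Nav2, Map2, Slc24a3, Iqsec1 and Kdm4d also fell. Nav2, neuron navigator 2, held 19.5, 19.6, 13.8 and 12.3 CPM in WT, against 10.2, 7.48, 3.48 and 3.05 CPM in Flcn KO (log2 change −1.37, SE 0.29, edgeR adjusted p = 0.00482). Map2, a microtubule-associated protein gene, held 31.6, 30.1, 21.4 and 29.0 CPM in WT, against 21.3, 12.02, 10.9 and 11.4 CPM in Flcn KO (log2 change −0.98, SE 0.21, edgeR adjusted p = 0.00428). In both, Flcn KO replicate 1 was the Flcn KO library nearest to WT, and at Map2 it fell just short of the lowest WT library. Slc24a3, a sodium and calcium exchanger gene, and Iqsec1, an exchange factor for ARF GTPases, fell by 1.19 and 0.96 log2 units (edgeR adjusted p = 0.00373 and 0.0028), without overlap. Kdm4d, a histone demethylase gene, shares its called peak with the window of Cwc15, a splicing factor gene. That peak held 40.0 to 48.0 CPM in WT, against 26.4 to 28.2 CPM in Flcn KO, without overlap (log2 change −0.72, SE 0.14, edgeR adjusted p = 0.00184).

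A further 4 lower promoters lost their calls without particular libraries or under other settings. Pcyox1l, related to an enzyme of prenylated protein breakdown, held 54.8, 65.8, 44.4 and 60.0 CPM in WT, against 38.9, 18.7, 13.7 and 10.7 CPM in Flcn KO, the widest spread among well-covered promoters. Its log2 change of −1.39 (SE 0.30, edgeR adjusted p = 0.033) lost its call in 5 of the 8 fits without 1 library: when WT replicate 1, 2 or 4 was left out, and likewise Flcn KO replicate 2 or 3, with adjusted p up to 0.072. The histone gene H2ac10, Slc43a1, an amino acid transporter gene, and Ccn4, a matricellular protein gene, had log2 changes of −1.03, −0.99 and −0.96 (edgeR adjusted p = 0.029, 0.032 and 0.031). Each lost its call in 6 of the 8 fits. H2ac10 kept it without WT replicate 2 or Flcn KO replicate 2, Slc43a1 without WT replicate 1 or Flcn KO replicate 1, and Ccn4 without WT replicate 3 or Flcn KO replicate 1, with adjusted p up to 0.138, 0.120 and 0.118 in the others. With scaling factors from promoter peaks alone, Slc43a1, Ccn4 and Tnfrsf9 were not called either (adjusted p = 0.053, 0.053 and 0.064 by edgeR). Pcyox1l was not called with loess offsets (edgeR adjusted p = 0.056), nor H2ac10 and Slc43a1 with limma-voom (adjusted p = 0.0505 and 0.0555). Histone genes have near-identical copies, so the reads of H2ac10 may be shared.

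The promoters of folliculin's own pathway were mostly not called. At Flcn, 2 promoter peaks had log2 changes of −0.28 and −0.57 (SE 0.22 and 0.31, edgeR adjusted p = 0.679 and 0.463); the labels do not say which exons are deleted, so the peaks do not check the genotype. Fnip1 and Fnip2, which encode the partners of folliculin, had log2 changes of 0.25 and 0.24 (SE 0.15 and 0.11, edgeR adjusted p = 0.532 and 0.349). Fnip2 held 57.5, 66.5, 60.2 and 64.0 CPM in WT, against 79.8, 65.2, 73.1 and 73.9 CPM in Flcn KO, with 1 Flcn KO library inside the WT range. The 2 Tfeb peaks and the Mitf peak, of genes for transcription factors that folliculin restrains, lay between −0.19 and 0.03, and the groups overlapped at each.

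Ppargc1a, which encodes the mitochondrial biogenesis coactivator PGC-1α and is a known target of TFEB, was the exception. Its peak (chr5:52115662-52116278), over the upstream end of the gene, held 12.5, 11.2, 15.8 and 15.3 CPM in WT, against 27.96, 22.4, 25.4 and 19.8 CPM in Flcn KO. All Flcn KO libraries were higher, by a fitted 1.77-fold (log2 change 0.82, SE 0.20, edgeR adjusted p = 0.0134). Without WT replicate 2 the adjusted p was 0.080 by edgeR, and in the other 7 fits without 1 library the call was kept.

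No promoter with a CLEAR element was called. Of 86 such start sites among 20084, the nearest start of 74 tested promoter peaks was one, with a median log2 change of −0.06 against −0.04 over all promoter peaks. None was called by edgeR, DESeq2 or limma-voom, and at 0.564% of all tested promoter peaks called a count of 0 among 74 is near the background. Of these 74, 3 were higher and 10 lower at an unadjusted edgeR p below 0.05. Over all tested promoter peaks 2.53% were higher and 4.85% lower. Both shares were larger among the 74, and this difference was not tested. Of 1016 tested promoter peaks with a CACGTG E-box 4 were called higher and 1 lower (0.492%, against 0.564% of all tested promoter peaks). No match says only that the letters are not in the window of 250 bases before and 50 after the start.

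Gene groups were followed through 17 lists, whose counts stand beside the 0.564% of all tested promoter peaks that were called. Of the 31 effector and tissue Treg genes 24 had promoter peaks; of 33 tested peaks 2 were called higher (both of Bhlhe40) and 1 lower (Areg), with a median log2 change of 0.02. Of 22 tested peaks of Treg identity genes 1 was called, Tnfrsf9, and the median was 0.04. In this list Il2ra, the interleukin-2 receptor alpha chain, had 34.9 ± 4.07 CPM in WT, against 43.7 ± 3.48 CPM in Flcn KO (log2 change 0.33, SE 0.14, edgeR adjusted p = 0.281). Of 67 tested peaks of lysosome and autophagy genes 1 was called, Ppargc1a, with a median of −0.02 and a range from −1.34 at Cd63, a lysosomal tetraspanin gene, to 1.07 at Psap, the prosaposin gene, neither of which passed the test (edgeR adjusted p = 0.077 and 0.191).

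The other 14 lists held 557 distinct tested promoter peaks, none of which was called by edgeR, DESeq2 or limma-voom. At an unadjusted edgeR p below 0.05 there were 8 higher and 17 lower, where 2.53% of all tested promoter peaks were higher and 4.85% lower. They cover the vacuolar ATPase (17 peaks, log2 changes from −0.21 to 0.15), mTORC1 and amino acid sensing (56 peaks), electron transport and ATP synthase (66 peaks, median −0.01), mitochondrial dynamics and mitophagy (39 peaks, median −0.06), glycolysis and the pentose phosphate pathway (33 peaks, median −0.05), cholesterol and fatty acid synthesis, the integrated stress response, apoptosis, T helper cytokines, the interferon response, ribosomal proteins (77 peaks, median −0.02), the cell cycle (49 peaks), chromatin regulators, and naive and resting T cell genes (38 peaks, median 0.02). The lowest adjusted p-values among them were those of Il2, the interleukin-2 gene, at −1.56 (SE 0.46, edgeR adjusted p = 0.059) and Rsad2, an antiviral gene induced by interferon, at 0.35 (SE 0.11, adjusted p = 0.092 by edgeR). The 17 list medians lay between −0.08 and 0.04.

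**Figure D5:**
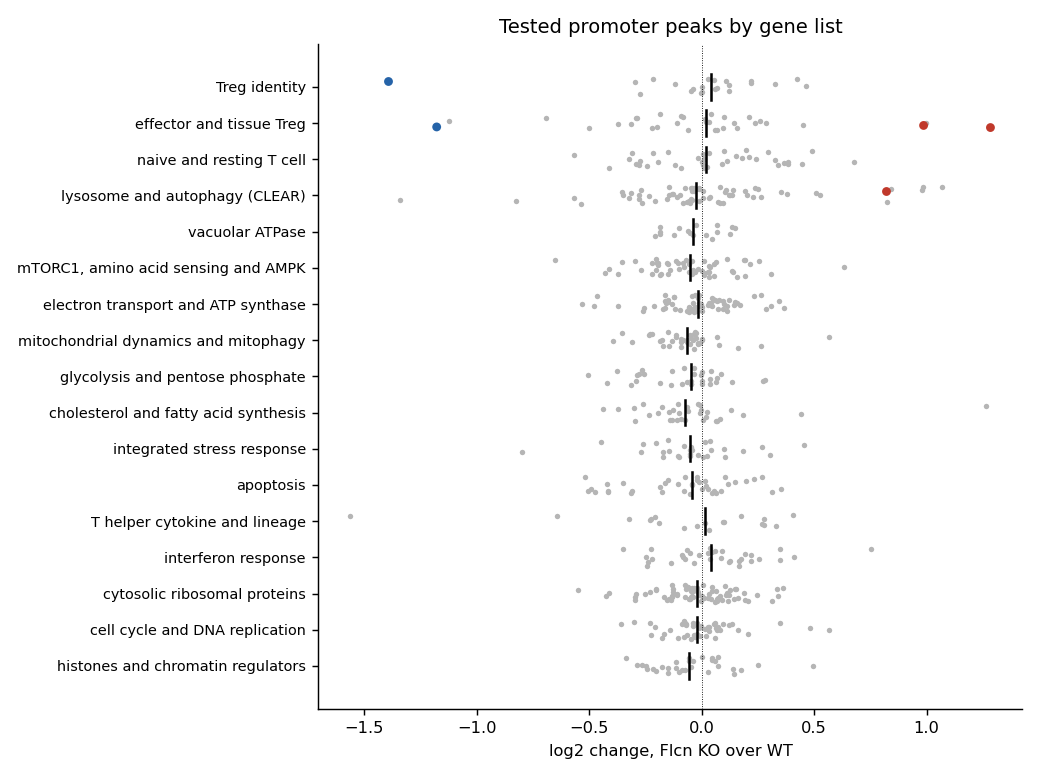
Log2 change of Flcn KO over WT at every tested promoter peak of 17 gene lists (points), with the median of each list as a black bar; red points were called higher and blue points lower at an edgeR adjusted p below 0.05. All medians lie between −0.08 and 0.04, and the called peaks are those of Bhlhe40, Ppargc1a, Areg and Tnfrsf9.

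Promoters called higher were less often CpG-rich than all tested promoter peaks, and this was not tested. Of tested promoter peaks with sequence 76.6% were at CpG-rich start sites, against 7 of the 19 called higher and 15 of the 24 called lower. The median ratio of observed to chance-level CpG was 0.339 at the higher and 0.799 at the lower ones, beside 0.787 over all tested promoter peaks with sequence. Put by class, 0.304% of CpG-rich and 0.948% of CpG-poor promoter peaks were called. Level moved with CpG content, with medians of 28.2 and 12.7 CPM, and its part in this difference was not tested. Of the 68 called peaks 51 covered the start site (27 higher, 24 lower), beside the 75.02% of all promoter peaks.

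Within 50000 bp, 11 of the 35 higher promoter peaks and 3 of the 33 lower ones had another called peak of the same direction. Summed over promoters, 18 of 164 other tested peaks around the higher ones were called higher, against 1.35% of all tested peaks. Around the lower ones 4 of 176 were called lower, against 1.02%. These sums count a peak once for each called promoter near it. The 2 Bhlhe40 peaks counted each other and shared neighbours, as did Lilr4b and Lilrb4a. The share among distinct peaks was not computed. Among the 11 higher promoter peaks with another called peak nearby were those of Bhlhe40, Hpgds, Lilr4b, Lilrb4a, Ppargc1a and Cnot8. The 3 lower ones were Slc24a3, Areg and Hs3st3b1, which encodes a heparan sulfate modifying enzyme. Read from the other side, most called distal peaks had a nearest promoter that was not called. The 320 higher distal peaks within 50000 bp of a start with a promoter peak had a median log2 change of 1.15, and their 276 nearest promoters a median of −0.00, with 5 called. The 212 lower distal peaks had a median of −1.38, and their 200 nearest promoters a median of −0.06, with 5 called.

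Chromosome 11, which carries Flcn, had the lowest median log2 change of promoter peaks, −0.10, with 19 (−0.07) and 9 (−0.07) next. Of the 5 called promoter peaks on chromosome 11, that of H2bu2, a histone gene, lay 0.86 Mb from the Flcn promoter, Igtp 1.61 Mb, Cnot8 1.71 Mb and Hs3st3b1 4.11 Mb away. Within 2 Mb of Flcn 3 of 64 tested promoter peaks (4.69%) were called, 1 higher and 2 lower, with a median of −0.18 over the 64. Among other peaks in that region 5 of 83 were called. In the table as a whole, 0.564% of tested promoter peaks and 2.97% of other tested peaks were called. This was looked at after the calls were seen, and distance from the deleted gene and the genotype cannot be told apart in these groups. Promoter peaks on chromosomes 11 and 19 were also the weakest, with medians of 25.3 and 27.7 CPM per kb, and the part of level in the lower medians was not tested.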

How the data were processed

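The authors deposited raw counts per peak and library, with no normalization, for 57199 shared peaks in mm10. The submitters' processing notes name MACS2 2.1.1, BWA 0.7.16, bedtools 2.25.0, SAMtools 1.9, Trimmomatic 0.36 and Picard 2.9.4. How duplicates, the transposase offset and the pooling of peaks were handled is not given in the sources used here. In promoter peaks 82.5% to 88.5% of the deposited counts per library were even numbers, as if both ends of most read pairs were counted, so fragments number closer to the count divided by 2 and intervals from counting are not used.

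Peak starts count from 0 in the file and were converted. Start sites were the 20084 sites of a RefSeq promoter table of GRCm38.p6, which holds no gene of chromosome 18, with the 5 prime end of 6616 gene spans added, and either gene end where no strand was known. Peaks were filtered by edgeR's filterByExpr (minimum count 10), scaled by TMM and tested by the robust quasi-likelihood test with genotype as the only term (edgeR 4.0.16, R 4.3.3), with Benjamini-Hochberg adjustment over all tested peaks. DESeq2 1.42.0 and limma 3.58.1 (voom) were alternatives, and the scripts were tested on simulated data. CPM per kb divides by peak width. The SE is the fitted change divided by the root of its F value. Spread is the SD of log2 CPM with a prior count of 2. P-values measure only the spread between these libraries.

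Samples were grouped by their titles. Replicate numbers do not pair the libraries: same-numbered WT and Flcn KO libraries deviated together with r between −0.05 and 0.08. The members, lists and motifs were chosen with earlier results of these data known. Promoter peaks are named by rule: the 10 largest changes in each direction among called, non-overlapping peaks not below the median level, the 5 lowest adjusted p in each direction, called peaks of lists, folliculin pathway genes, the 5 strongest, the markers, genes with several called peaks, and the 5 most and 5 least variable. Other promoters named beside lists or neighbours (Il2ra, Cd63, Psap, Il2, Rsad2, H2bu2, Hs3st3b1) were chosen after their values were seen. Results for 2 of the cell type markers are not reported here.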

Additional observations from a re-analysis of the deposited data

Results flagged for a closer look

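In the groups of 4 libraries checked for a library standing apart from the other 3, 72 in all, chance alone would flag about 1 in 20. At the Lilr4b promoter Flcn KO replicate 1 held 46.7 CPM where the other Flcn KO libraries held 20.4 to 21.9 CPM. At the Map2 promoter Flcn KO replicate 1 held 21.3 CPM, nearest to WT, where the others held 10.9 to 12.02 CPM. At the Flcn promoter peak nearer the start site (start 59809585) Flcn KO replicate 3 held 2.98 CPM where the others held 6.86 to 7.48 CPM.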

How the results depend on the processing

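Scaling on promoter peaks alone gave 19 lower promoter calls, where the scaling on all peaks gave 33. Leaving out 1 library gave 24 to 66 higher and 13 to 83 lower calls: the highest counts came without Flcn KO replicate 1, and 18, 13, 18 and 17 lower calls without WT replicates 1, 2 and 4 and Flcn KO replicate 3; the cause was not tested. The other scalings, filters, tools, halved counts and windows of 500 and 2000 bp kept both counts within 1.5 times. A fit with the replicate number as a block called 40 higher and 47 lower promoter peaks, with 67 of the 68 kept, and the share of counts with the block differed by −0.89 points (exact sign-flip permutation p = 0.625); not every library correlated best with its own number. The median log2 change over promoter peaks lay between −0.06 and 0.00 under all alternatives, and the difference in promoter share between −1.60 and −0.32 points. Over 74 named tested peaks and their alternatives, 1270 of 1313 values kept direction and side of the threshold, 40 lost the call, 1 gained it (Cd28, without Flcn KO replicate 1), 2 moved and 0 reversed. At a few counts per library, as at Ifit1bl2 in WT or Igtp in Flcn KO, sizes of change are imprecise.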
